A study of Mus musculus with 16 samples.

Results

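The gelsolin family of actin regulators was followed through myeloid commitment in mouse bone marrow, with and without antibiotics in the drinking water. Its members here were 6 genes: Scin, Gsn, Capg, Flii, Avil and Svil. Each was read from the probe set that carried its symbol alone, and each had 1 such probe set (17280817, 17370209, 17459656, 17263609, 17237851 and 17348156 in that order), so all 6 of the 6 listed genes were found among 22180 genes of the arrays. The family was chosen by a readout of these same arrays, the antibiotic difference of Scin in common myeloid progenitors. That difference, and every difference of Scin that uses arrays of these progenitors, is given below as a description with no test.

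Gelsolin-type proteins are built from repeats of a folded actin-binding module and most of them are switched on by calcium. They sever filaments, cap the fast-growing end or bundle filaments, and phosphoinositides of the membrane release them from the capped end. In blood cells they are known for the remodelling of the cortex during secretion, platelet shape change, crawling and phagocytosis. Scin (scinderin, also called adseverin) severs and caps filaments and was described in secretory cells. Gsn (gelsolin) severs and caps, and has a cytoplasmic and a secreted plasma form. Capg caps filament ends without severing them and is abundant in macrophages. Flii joins gelsolin modules to leucine-rich repeats and acts also in transcription complexes, Avil (advillin) is a villin relative known from sensory neurons, and Svil (supervillin) ties filaments and myosin II to the membrane.

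The cells were sorted from the bone marrow of C57BL/6 wild-type mice that drank control water or antibiotic water for 3 weeks. Antibiotic water held ampicillin, metronidazole, neomycin and vancomycin at 1 g/L each, and both waters held 2% sucrose, so the controls also drank sugar. All sorted cells were negative for the lineage panel (with Sca-1 in it) and for CD105, and positive for Kit. Common myeloid progenitors (CMPs) had intermediate CD16/32 and no CD115, granulocyte-monocyte progenitors (GMPs) had high CD16/32 and no CD115, and committed monocyte progenitors (cMoPs) had CD115 and Ly6C. There were 3 control and 3 antibiotic arrays of CMPs, 2 control and 3 antibiotic arrays of GMPs, and 2 control and 3 antibiotic arrays of cMoPs. Age and sex of the mice are not stated in the labels, nor is it stated whether the RNA of an array came from a single mouse or from several. The p-values therefore cover array-to-array spread, which may be technical.

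The 16 arrays had medians of 4.04 to 4.17 log2, and arrays within a group had r = 0.985 to 0.991 over all genes. Several genes of the sort gate followed the labels: Fcgr3 (CD16) was 3.14 ± 0.15 log2 higher in GMPs than in CMPs (adjusted p = 3.38e-10), Csf1r (CD115) was 1.95 ± 0.13 higher in cMoPs than in GMPs (adjusted p = 2.68e-07), and Kit had means of 10.51, 10.03 and 9.41 in CMPs, GMPs and cMoPs. The Ly6C genes Ly6c2 and Ly6c1 were 2.41 ± 0.18 and 1.60 ± 0.19 higher in cMoPs than in CMPs. Between cMoPs and GMPs limma called neither Ly6c2 (0.14 ± 0.19, adjusted p = 0.817) nor Ly6c1 (0.56 ± 0.20, adjusted p = 0.154). Kit, CD16 and CD115 aside, the probe sets of the gate were not all in step with it. The probe sets of Eng (CD105), used to exclude cells, read 8.33, 6.71 and 7.13 in the same order. Values are log2 signal of 1 probe set, which can be compared between arrays but not between genes. No member lay at or below the lower quartile of an array (2.89 to 2.99), the range in which a signal is not shown to be above background; Avil, with 3.64 to 4.12, came closest. In sorted populations, fewer cells of a type and less RNA per cell cannot be told apart.

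The start regions of the 3 members that later passed a test between progenitors are shown here because they differ in composition and in the short motifs they hold. They are the 250 bases before the start site of RefSeq, build GRCm38.p6, written 5′ to 3′ on the strand of the gene, with motif matches in capitals. Scin lies at chr12:40134229-40134478 on the minus strand, Gsn (the first of 3 start sites in the table) at chr2:35256109-35256358 on the plus strand, and Capg at chr6:72549397-72549646 on the plus strand.
Scin: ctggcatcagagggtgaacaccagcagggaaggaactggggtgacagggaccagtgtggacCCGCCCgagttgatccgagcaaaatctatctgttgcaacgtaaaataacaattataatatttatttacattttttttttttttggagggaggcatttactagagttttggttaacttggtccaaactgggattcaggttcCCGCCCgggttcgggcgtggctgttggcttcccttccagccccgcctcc
Gsn: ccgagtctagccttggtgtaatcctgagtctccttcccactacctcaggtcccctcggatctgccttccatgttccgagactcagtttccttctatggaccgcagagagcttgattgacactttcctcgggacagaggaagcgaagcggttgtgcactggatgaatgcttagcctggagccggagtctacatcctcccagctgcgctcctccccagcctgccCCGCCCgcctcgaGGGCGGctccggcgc
Capg: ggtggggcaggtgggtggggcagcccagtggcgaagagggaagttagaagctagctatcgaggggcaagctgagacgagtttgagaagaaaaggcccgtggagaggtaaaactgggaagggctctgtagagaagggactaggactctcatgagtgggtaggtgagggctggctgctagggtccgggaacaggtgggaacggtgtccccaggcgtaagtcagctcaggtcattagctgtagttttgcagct

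The capitals mark the GC box GGGCGG, the core of the sites bound by Sp1-type factors, read on both strands. Scin held it at 2 places, starting 189 and 49 bases before the start site. Gsn held it at 2 places in the region shown, with the first 28 bases before the start, and at 1 place before each of its other start sites. The Capg region held none of the motifs searched, and of all 32851 promoters of this length in the table, 32.74% held a GC box. Other motifs were searched on both strands as well: the CArG box of serum response factor, a known regulator of actin genes (1.47% of promoters), AGATAA of the GATA factors (9.99%) and GAGGAAGT of PU.1 (2.44%). Of the promoters of Scin, Gsn, Capg, Flii and Avil in the table, 1 held any of these, with AGATAA in that of Avil 102 bases before the start. The Scin region was 49.2% G and C with 9 CpG pairs, that of Gsn 60.8% with 15, and that of Capg 57.6% with 7, beside medians of 52.4% and 6 over the table. Of 93 promoters of the other actin regulators listed below, 59 (63.4%) held the GC box, 5 (5.4%) the CArG box, 2 (2.2%) AGATAA and 1 (1.1%) GAGGAAGT. A match describes letters in this window and not a bound site.

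Scin had its highest signal in CMPs and its lowest in cMoPs. In CMPs the control arrays read 5.15, 5.54 and 5.10, and the antibiotic arrays 7.20, 7.06 and 6.66. In GMPs the control arrays read 4.51 and 4.46, and the antibiotic arrays 5.03, 4.75 and 5.31. In cMoPs the control arrays read 4.21 and 4.05, and the antibiotic arrays 3.91, 3.90 and 4.33. All 3 antibiotic CMP arrays lay above every other array, and all 5 cMoP arrays lay below every GMP and CMP array. Scin was chosen on its CMP arrays, and the share of all genes so separated between progenitors was not counted. By group mean the order was antibiotic CMPs (6.97 ± 0.28 SD, n = 3), control CMPs (5.26 ± 0.24, n = 3), antibiotic GMPs (5.03 ± 0.28, n = 3), control GMPs (4.49 ± 0.035, n = 2), control cMoPs (4.13 ± 0.11, n = 2) and antibiotic cMoPs (4.05 ± 0.25, n = 3). Control CMPs and antibiotic GMPs overlapped, as did both groups of cMoPs, and the other neighbours in this order did not.

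**Figure D1:**
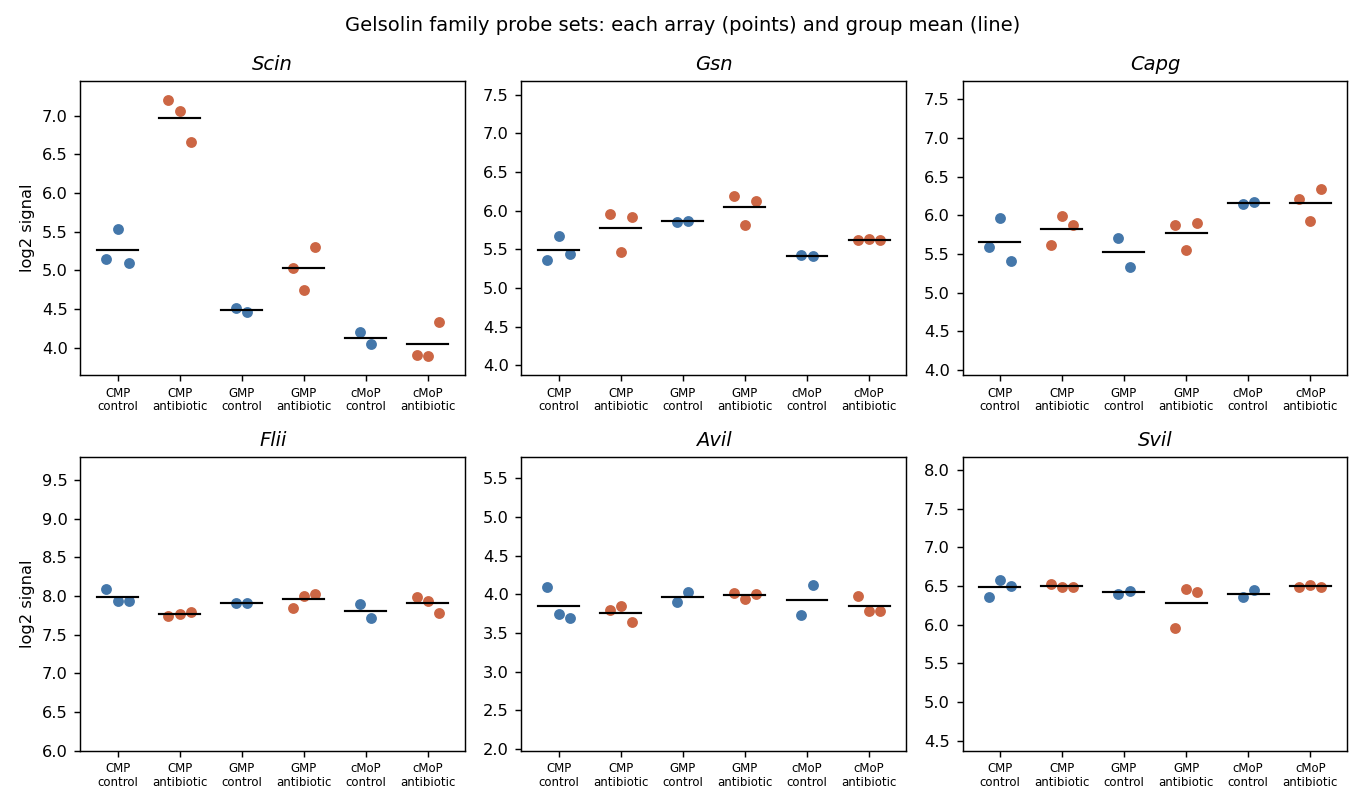
Log2 signal (y axis) of the 6 gelsolin family probe sets in each of the 6 groups (x axis); points are arrays, blue for control and orange for antibiotic water, and lines are group means, with an equal span on every y axis. Scin spans 3.90 to 7.20 and is highest in antibiotic CMPs, while Flii, Avil and Svil span 7.71 to 8.09, 3.64 to 4.12 and 5.96 to 6.58.

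Whether each member changed along commitment was asked by comparing progenitors over both waters, with the equal-weight mean of control and antibiotic groups and a call at an adjusted p under 0.05. Errors of differences are standard errors throughout, and every adjusted p is from limma with Benjamini-Hochberg adjustment over all 22180 genes. The 3 comparisons share groups with each other. From GMPs to cMoPs, a comparison that uses no CMP array, Scin fell by 0.67 ± 0.14 log2 (1.59-fold, adjusted p = 0.0104). Against CMPs its differences contain the arrays it was chosen on and were not tested. They were -1.36 ± 0.14 for GMPs (2.57-fold lower than in CMPs) and -2.03 ± 0.14 for cMoPs (4.08-fold lower).

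The control arrays alone leave out the antibiotic CMP arrays. The control CMP arrays were also used to choose Scin, so its differences from CMPs there are given without a test. The difference of GMPs from CMPs was -0.78 ± 0.20 log2 (1.72-fold lower in GMPs) and that of cMoPs from CMPs was -1.13 ± 0.20 (2.19-fold lower). The difference of cMoPs from GMPs was -0.36 ± 0.23 in control arrays and did not pass (adjusted p = 0.637), although the 2 control arrays of cMoPs lay below the 2 of GMPs. Without the second control array of cMoPs the difference over both waters was -0.63 with an adjusted p of 0.05, and was not called. In antibiotic arrays the difference of cMoPs from GMPs was -0.98 ± 0.18 (adjusted p = 0.00435), and those from CMPs, not tested, were -1.94 ± 0.18 for GMPs and -2.93 ± 0.18 (7.6-fold) for cMoPs.

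Gsn was highest in GMPs. Its control arrays read 5.36, 5.67 and 5.44 in CMPs, 5.85 and 5.87 in GMPs, and 5.42 and 5.41 in cMoPs. The antibiotic arrays read 5.95, 5.46 and 5.92 in CMPs, 6.19, 5.81 and 6.13 in GMPs, and 5.62, 5.63 and 5.62 in cMoPs. All 5 GMP arrays lay above all 5 cMoP arrays, while the CMP arrays overlapped both. How many of all genes were so separated between these progenitors was not counted. From GMPs to cMoPs Gsn fell by 0.43 ± 0.12 log2 (1.35-fold, adjusted p = 0.0405). Between GMPs and CMPs the difference was 0.32 ± 0.11 (1.25-fold, adjusted p = 0.0644), and between cMoPs and CMPs it was -0.11 ± 0.11 (95% interval -0.35 to 0.12, adjusted p = 0.551).

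The call of Gsn between cMoPs and GMPs lay close to the threshold and was lost in 18 of 28 alternative settings, with the difference negative in every one. It was lost without any 1 of the 5 cMoP arrays or of the 2 control GMP arrays, without antibiotic GMP array 1 or 3, and without control CMP array 3. Over these the difference was -0.44 to -0.40 and the adjusted p 0.0521 to 0.117. In control arrays alone the difference was -0.45 ± 0.18 (adjusted p = 0.345) and in antibiotic arrays alone -0.42 ± 0.15 (adjusted p = 0.166). The difference of Gsn between GMPs and CMPs was called without antibiotic CMP array 1 (0.36, adjusted p = 0.0494), without control CMP array 2 (0.36, 0.0447) and without antibiotic GMP array 2 (0.38, 0.0321). It was also called after quantile normalization (0.39, adjusted p = 0.029) and over the brighter genes alone (0.32, adjusted p = 0.0319).

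Capg, the capping member, ran the other way and was highest in cMoPs. Its control arrays read 5.59, 5.96 and 5.41 in CMPs, 5.71 and 5.33 in GMPs, and 6.14 and 6.17 in cMoPs. The antibiotic arrays read 5.62, 5.99 and 5.87 in CMPs, 5.87, 5.55 and 5.90 in GMPs, and 6.21, 5.92 and 6.34 in cMoPs. All 5 cMoP arrays lay above all 5 GMP arrays, with the closest pair at 5.92 and 5.90. Of these cMoP arrays 4 of the 5 lay above every CMP array. The share of all genes with such separation was not counted here either. From GMPs to cMoPs Capg rose by 0.51 ± 0.14 log2 (1.42-fold, adjusted p = 0.039), and cMoPs exceeded CMPs by 0.42 ± 0.13 (1.33-fold, adjusted p = 0.033). GMPs and CMPs differed by -0.093 ± 0.13 (95% interval -0.37 to 0.18, adjusted p = 0.717).

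Both calls of Capg lay close to the threshold, and its difference stayed positive in all 28 alternatives of both. The call against GMPs was lost in 13 of them, among these without cMoP antibiotic array 1 or 3, either cMoP control array, GMP antibiotic array 1 or 2, GMP control array 2 and CMP antibiotic array 3 (differences of 0.41 to 0.53, adjusted p = 0.0513 to 0.188). The call against CMPs was lost in 12, among these without cMoP antibiotic array 1 or 3, either cMoP control array, CMP antibiotic array 1 and CMP control array 1 or 3 (0.36 to 0.42, adjusted p = 0.0607 to 0.0875). In control arrays alone Capg was 0.64 ± 0.21 higher in cMoPs than in GMPs (adjusted p = 0.203), and in antibiotic arrays alone 0.38 ± 0.17 higher (adjusted p = 0.332).

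Counted together, 3 of 6 members were called between cMoPs and GMPs, Capg higher and Scin and Gsn lower, where 5.42% of all genes were called, 2.6% higher and 2.82% lower. Between cMoPs and CMPs 1 of the 5 members other than Scin was called, Capg higher, where 18.9% of all genes were called, 9.72% higher and 9.2% lower. Between GMPs and CMPs 0 of these 5 were called by limma, with 1 (Gsn) at an unadjusted p under 0.05, where 16% of all genes were called, 7.87% higher and 8.17% lower. The median difference was 0.057 log2 for GMPs from CMPs and -0.023 for cMoPs from CMPs over these 5, and -0.083 for cMoPs from GMPs over all 6, beside 0.025, 0.044 and 0.013 over all genes.

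**Figure D2:**
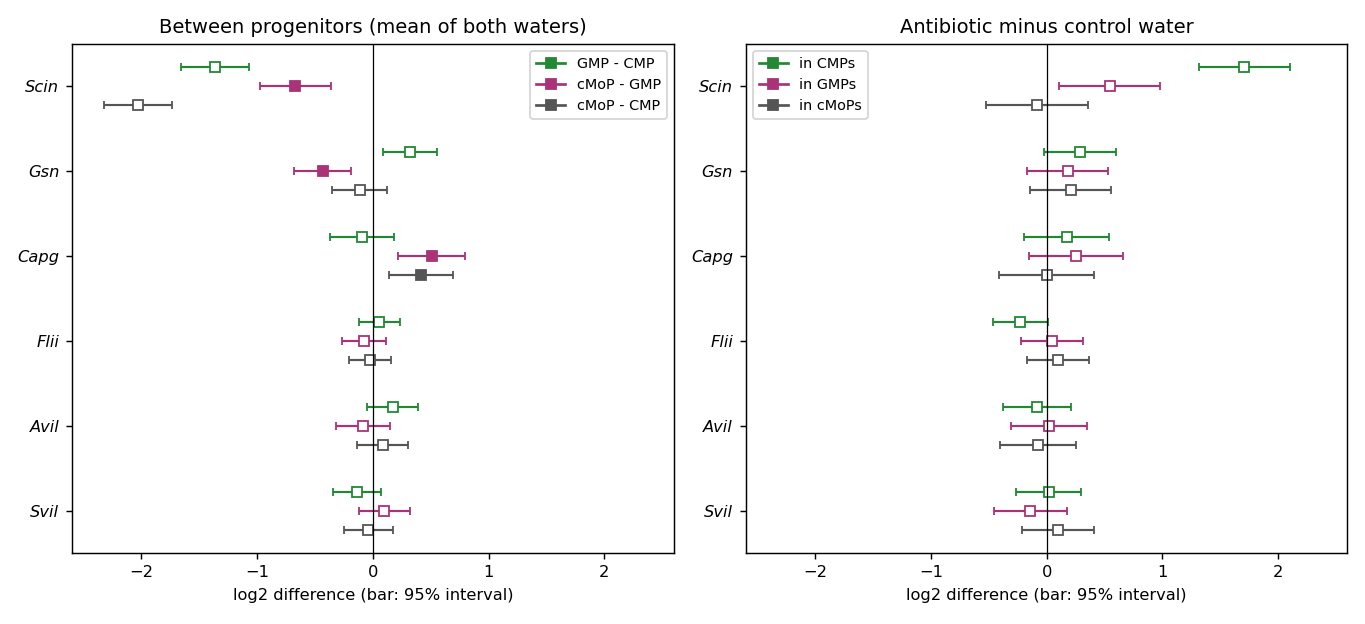
Log2 differences (x axis) of the 6 members (rows) between progenitors over both waters (left) and between antibiotic and control water within each progenitor (right); squares are limma estimates, bars are 95% intervals, and filled squares passed the threshold of the comparison. Scin spans -2.03 to 1.71, and Gsn and Capg differ between cMoPs and GMPs in opposite directions. No tested member is filled on the right. Scin was not tested against or within CMPs, so its squares there are hollow and its bars there are no test.

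Flii, Avil and Svil passed no progenitor comparison. Flii read 8.09, 7.94 and 7.94 in control CMPs, 7.74, 7.76 and 7.79 in antibiotic CMPs, 7.91 in both control GMP arrays, 7.84, 8.0 and 8.03 in antibiotic GMPs, 7.90 and 7.71 in control cMoPs, and 7.99, 7.94 and 7.78 in antibiotic cMoPs. The 3 progenitors overlapped, and the differences of Flii lay between -0.079 and 0.057, with 95% intervals inside -0.27 and 0.24. Svil read 6.36, 6.58 and 6.5 in control CMPs, 6.52, 6.48 and 6.49 in antibiotic CMPs, 6.40 and 6.44 in control GMPs, 5.96, 6.46 and 6.42 in antibiotic GMPs, 6.35 and 6.45 in control cMoPs, and 6.49, 6.51 and 6.49 in antibiotic cMoPs. One antibiotic GMP array, at 5.96, was the lowest of all for Svil, and the other 15 lay between 6.35 and 6.58. Differences of Svil were -0.14 to 0.098 with intervals inside -0.35 and 0.32. Avil, the dimmest relative to array background, had group means of 3.76 to 3.99 and differences of -0.087 to 0.17, with intervals inside -0.32 and 0.39. Changes of up to these interval ends cannot be told from none with this number of arrays.

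Antibiotic against control water within each progenitor is the comparison the study states, at a false discovery rate under 0.2. In CMPs Scin read 1.71 ± 0.18 log2 higher after antibiotics, which is 3.27-fold. This is the difference it was chosen for and is not tested. Choice by this difference favours a large value and a small spread, so its size may be overstated. In GMPs, which the choice did not use, the difference of Scin was 0.55 ± 0.20 (1.46-fold, 95% interval 0.11 to 0.98, adjusted p = 0.565). All 3 antibiotic GMP arrays (4.75 to 5.31) lay above both control arrays (4.46 and 4.51). In either direction 23% of all genes were so separated in GMPs. The difference was positive in all 26 alternatives (0.41 to 0.69, adjusted p = 0.442 to 0.754), which reuse these arrays and are no separate support. In cMoPs the groups overlapped and the difference was -0.083 ± 0.20 (95% interval -0.52 to 0.35, adjusted p = 0.982). Scin read 3.90 to 4.33 in cMoPs, about the medians of the arrays (4.04 to 4.17). Whether low signal limits its differences there was not tested. The antibiotic difference of cMoPs minus that of GMPs was -0.63 ± 0.29 (95% interval -1.25 to -0.010, adjusted p = 0.932 for this interaction). Set against CMPs, where it was not tested, the antibiotic difference was -1.17 ± 0.28 in GMPs and -1.79 ± 0.28 in cMoPs relative to that in CMPs.

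In CMPs the array means of the dendritic cell, cMoP-stage and T and NK cell lists did not overlap between the waters. Among single genes 11.6% were so separated in CMPs, in either direction. Of the listed markers only F13a1 was called. The part of the marker lists in the Scin difference was not tested. The mean over 7 dendritic cell markers was 5.56 to 5.92 in antibiotic and 5.33 to 5.37 in control CMP arrays, with 7 of 7 positive and a median difference of 0.36. For 8 cMoP-stage genes it was 7.01 to 7.55 against 7.73 to 7.82, with 7 of 8 negative and a median of -0.58; of these F13a1 was called lower (-1.15 ± 0.17, adjusted p = 0.0301). All 6 GMP-stage genes were negative (median -0.25; 9.34 to 10.08 against 9.71 to 10.37), as were 7 of 8 macrophage markers (median -0.31; 4.29 to 4.55 against 4.39 to 4.99). T and NK cell markers were positive in 5 of 7 (4.15 to 4.21 against 3.94 to 4.06), with 3 of the 7 at or below the lower quartile of the arrays in both groups, and B lineage markers in 6 of 7 (4.93 to 5.31 against 4.71 to 4.98). Megakaryocyte markers overlapped (6.33 to 6.62 against 6.06 to 6.55; 4 of 7 positive), as did erythroid markers (9.13 to 9.36 against 9.12 to 9.28; 3 of 7), mast cell and basophil markers (5.03 to 5.18 against 4.76 to 5.05; 5 of 8) and stromal and endothelial markers (4.33 to 4.36 against 4.28 to 4.36; 4 of 8). Eosinophil markers were negative in 5 of 6 (median -0.22; 4.43 to 5.29 against 5 to 5.18) and mature neutrophil markers in 6 of 9 (median -0.10; 8.31 to 8.74 against 8.43 to 8.81), while CMP-stage genes were positive in 2 of 4 (8.93 to 8.98 against 8.9 to 9).

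In GMPs the array means of the erythroid and megakaryocyte lists did not overlap between the waters. Among single genes 23% were so separated in GMPs, in either direction. The part of the marker lists in the Scin difference there was not tested either. Erythroid markers read 5.43 to 5.57 in antibiotic and 4.88 to 5.06 in control GMP arrays, with 6 of 7 positive and a median difference of 0.33. Among them Car1, a carbonic anhydrase, was called higher (1.78 ± 0.20, adjusted p = 0.00308). No other listed marker was called in GMPs. Megakaryocyte markers read 5.31 to 5.42 against 5.01 to 5.21 (5 of 7 positive, median 0.28). The cMoP-stage genes were negative in 7 of 8, as in CMPs, and their ranges met at 8.43 (median -0.40, 7.99 to 8.43 against 8.43 to 8.66). Eosinophil markers overlapped (7.5 to 8.21 against 7.3 to 7.93), with 5 of 6 positive and a median of 0.33. Dendritic cell markers overlapped too (4.52 to 4.72 against 4.56 to 4.61), with 4 of 7 positive and a median of 0.14. The marker lists not named here also overlapped between the waters in GMPs.

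**Figure D3:**
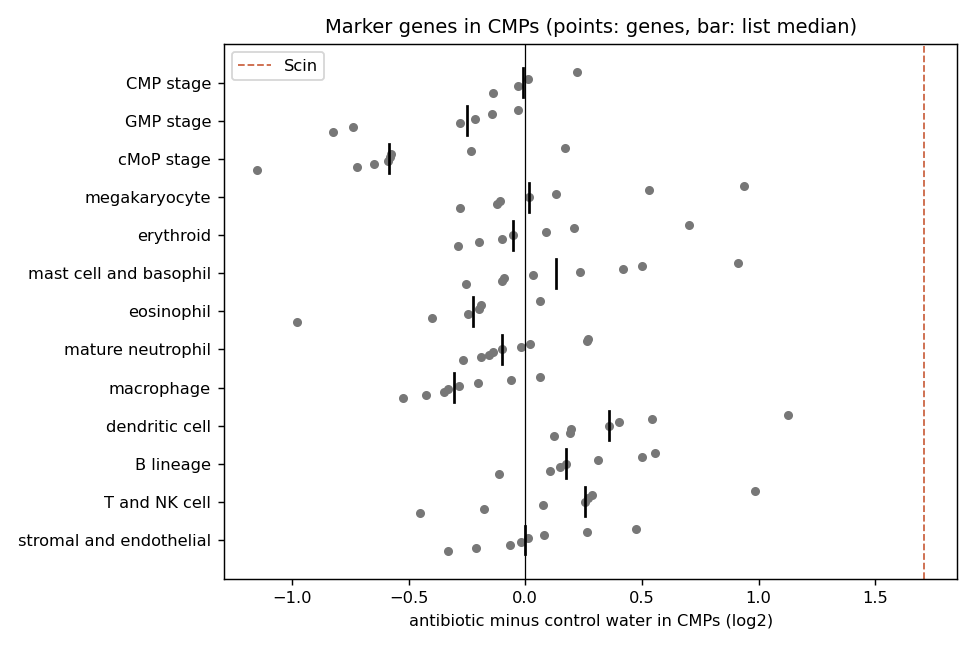
Antibiotic minus control difference in CMPs (x axis, log2) of each measured marker gene (grey points) by cell type or stage (rows), with the median of each list as a bar and Scin as a dashed line at 1.71. Dendritic cell markers all lie right of 0, all GMP-stage and 7 of 8 cMoP-stage genes lie left of it, and no marker reaches the line of Scin.

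Among the other members no antibiotic difference was called. The count was 0 of 5 in CMPs (0.0406% of all genes called), 0 of 6 in GMPs (0.0721%) and 0 of 6 in cMoPs (0.131%). It was 0 of 5 for the mean of the 3 progenitors (0.514%) and 0 of 5 for the interaction of water and progenitor (0.00451%). Scin was left out wherever CMP arrays were compared. At an unadjusted p under 0.05 by limma the counts were 0, 1, 0, 1 and 0, beside 7.24%, 7.49%, 6.2%, 9.54% and 5.79% of all genes. The 1 in GMPs was Scin, and the 1 in the mean was Gsn, which was 0.23 ± 0.092 log2 higher after antibiotics (1.17-fold, 95% interval 0.031 to 0.42, adjusted p = 0.456). The difference of Gsn was positive in each progenitor, with 0.29 ± 0.15 in CMPs, 0.18 ± 0.16 in GMPs and 0.21 ± 0.16 in cMoPs. Its antibiotic cMoP arrays (5.62 to 5.63) lay above the control arrays (5.41 and 5.42), and in CMPs and GMPs the groups overlapped.

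The antibiotic difference of Flii in CMPs was -0.23 ± 0.11 log2 (95% interval -0.47 to 0.012, adjusted p = 0.701). All 3 antibiotic CMP arrays of Flii (7.74 to 7.79) lay below the 3 control arrays (7.94 to 8.09). Svil in antibiotic cMoPs (6.49 to 6.51) lay above the control arrays (6.35 and 6.45), with a difference of 0.097 ± 0.15 and an adjusted p of 0.972. Over 17 pairs of member and progenitor, without Scin in CMPs, 3 had all antibiotic arrays above all control arrays and 1 had them below, and such separation in either direction was seen for 11.6% of all genes in CMPs, 23% in GMPs and 21% among the cMoP arrays. The antibiotic difference of Capg was 0.17 ± 0.17 in CMPs, 0.25 ± 0.19 for the GMP arrays and 0.002 ± 0.19 for those of cMoPs, and its groups overlapped in each. Avil differed by -0.080 ± 0.14, 0.022 ± 0.15 and -0.072 ± 0.15, also with overlap in each.

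The 3 genes most like each member over the 16 arrays were named by Pearson r among about 11087 genes brighter than the median gene; these are descriptions over arrays that share their groups. For Scin they were Pdgfrb (r = 0.933), a receptor for platelet-derived growth factor, Mctp2 (0.923), a calcium-binding membrane protein, and Sytl4 (0.915), granuphilin, a Rab effector of secretory granules. All of them were highest in antibiotic CMPs. Choosing genes by likeness to Scin over the same 16 arrays favours this, so their values are no separate support for the Scin difference. In CMPs the antibiotic difference was 0.81 ± 0.19 log2 for Pdgfrb, 0.73 ± 0.19 for Mctp2 and 0.55 ± 0.13 for Sytl4, beside 1.71 for Scin. In GMPs it was 0.76 ± 0.21 for Pdgfrb, 0.097 ± 0.22 for Mctp2 and 0.29 ± 0.14 for Sytl4, beside 0.55 for Scin.

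**Figure D4:**
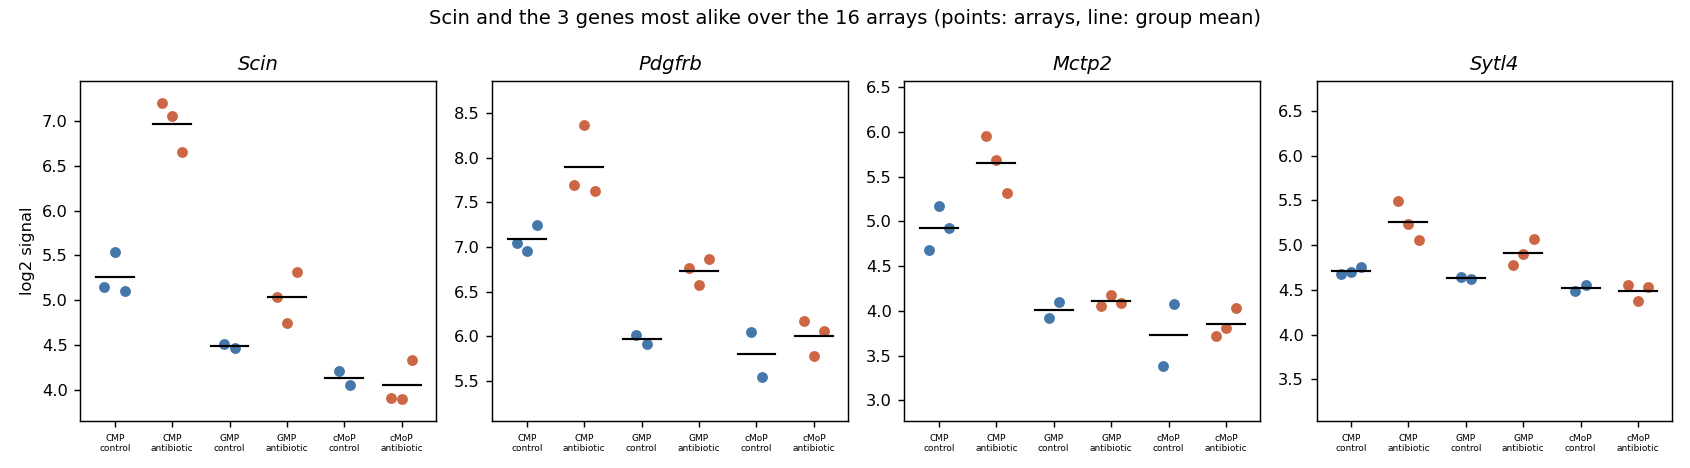
Log2 signal (y axis) of Scin and of the 3 genes whose signal followed it most closely over the 16 arrays, by group (x axis); points are arrays, blue for control and orange for antibiotic water, and lines are group means. Each gene has its highest group mean in antibiotic CMPs, and Scin, Pdgfrb (6.57 to 6.86 against 5.92 and 6.02) and Sytl4 (4.78 to 5.07 against 4.62 and 4.64) have their antibiotic GMP arrays above the control GMP arrays, as 23% of all genes do in either direction.

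Gsn was most like Suco (r = 0.813), Cpeb4 (0.813), an mRNA-binding protein, and Slc25a37 (0.792), mitoferrin, which carries iron into mitochondria. These 3 genes had their highest means in antibiotic GMPs, as Gsn had. Capg was most like Cryl1 (0.866), Nusap1 (0.845), a protein of the mitotic spindle, and Smim20 (0.832), and these had their highest means in cMoPs. Flii, whose spread was small, was most like Kank3 (0.748), the complement receptor C5ar2 (0.727) and the ficolin Fcna (0.727). Avil came closest to Zfand3 (0.805), Pcsk7 (0.786) and Cdk18 (0.781), and Svil to Ndufa8 (0.896), Itfg2 (0.869) and Smim15 (0.857).

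Other regulators of actin were read from 10 lists with 86 genes, of which 79 were measured. Among them 33 were called between GMPs and CMPs (23 higher and 10 lower, 41.8%), 16 between cMoPs and GMPs (10 and 6, 20.3%) and 41 between cMoPs and CMPs (29 and 12, 51.9%), and 50 were called in at least 1 of the 3. Over all genes the shares were 16%, 5.42% and 18.9%. Among genes brighter than the median gene, fitted alone, 33.2%, 12.7% and 38% of 11088 were called, and 57.1%, 28.6% and 62.9% of the 70 actin regulators among them. The median differences were 0.049, 0.082 and 0.18 log2, beside 0.025, 0.013 and 0.044 over all genes. In each comparison more of these regulators were called higher than lower in the later progenitor. Vil1 and Vill, the villin relatives closest to the members, were called nowhere but for Vill, which was 0.58 ± 0.17 higher in cMoPs than in CMPs (adjusted p = 0.0224). Vil1 had group means of 2.87 to 3.26, which in 3 of 6 groups lay below 2.99, the upper end of the lower quartiles.

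Of 14 genes of filament disassembly and its control by cofilin, 7 were called between GMPs and CMPs, 6 of them higher, where 16% of all genes were called. The higher ones included Wdr1 (0.445 ± 0.093) and the kinases Limk1 (0.41 ± 0.096) and Limk2 (0.37 ± 0.11), which switch cofilin off. The lower one was Ssh1 (-0.58 ± 0.14), a phosphatase that switches it on. Its relatives Ssh2 (-0.089 ± 0.088) and Ssh3 (-0.20 ± 0.16) were not called. Dstn (destrin), which severs filaments without calcium control, was 1.64 ± 0.10 log2 higher in GMPs and 1.37 ± 0.10 higher in cMoPs than in CMPs (adjusted p = 9.37e-09 and 6.36e-08). Twf2, a twinfilin that binds monomers and caps ends, was 1.05 ± 0.14 higher in GMPs and 1.06 ± 0.14 higher in cMoPs. Among 10 genes listed for filament end capping or its control, 2 were called lower in GMPs than in CMPs and 0 higher. Over all genes 8.17% were called lower. These were 2 adducins, Add2 (-2.19 ± 0.16, adjusted p = 5.47e-08), known from the membrane skeleton of red cells, and Add1 (-0.70 ± 0.13, adjusted p = 0.00078). Add3, also an adducin, was not called (-0.007 ± 0.12, adjusted p = 0.979 by limma). Carmil1, which removes capping protein, was 0.67 ± 0.17 higher in cMoPs than in GMPs (adjusted p = 0.0287). It was the 1 called of these 10 in that comparison, where 5.42% of all genes were called.

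Crosslinkers and coronins were called in 7 of 10 cases between GMPs and CMPs, all 7 higher. Over all genes 16% were called in this comparison, 7.87% higher and 8.17% lower. Among the 7 were Coro1a (0.64 ± 0.080), a coronin of leukocytes, and Lcp1 (0.59 ± 0.078), the leukocyte plastin. The difference of cMoPs from GMPs was -1.59 ± 0.19 for Actn1, an actinin (adjusted p = 4.22e-05). Of 13 genes that promote nucleation, 6 were called between GMPs and CMPs, 2 higher and 4 lower, with Nckap1, a subunit of the WAVE complex, at -2.63 ± 0.16 and Cttn (cortactin) at -1.45 ± 0.13, beside -1.36 for Scin. Both fell again from GMPs to cMoPs, with -0.63 ± 0.17 for Nckap1 and -0.92 ± 0.13 for Cttn, as Scin did with -0.67. Formins and Ena/VASP proteins, which lengthen filaments, split 3 higher and 1 lower of 9 between GMPs and CMPs, with Diaph2 (1.35 ± 0.10) and Enah (1.43 ± 0.21) higher. Between cMoPs and GMPs the difference was 0.95 ± 0.15 for Evl and -0.97 ± 0.12 for Fmnl2. Tpm4, a tropomyosin, differed by -0.83 ± 0.16 between GMPs and CMPs and by 1.82 ± 0.17 between cMoPs and GMPs. Of the Arp2/3 complex 2 of 6 genes were called between GMPs and CMPs, Actr3 (0.54 ± 0.080) and Arpc4 (0.40 ± 0.10), both higher, and Tmsb4x, which holds actin monomers, was 0.53 ± 0.086 higher.

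**Figure D5:**
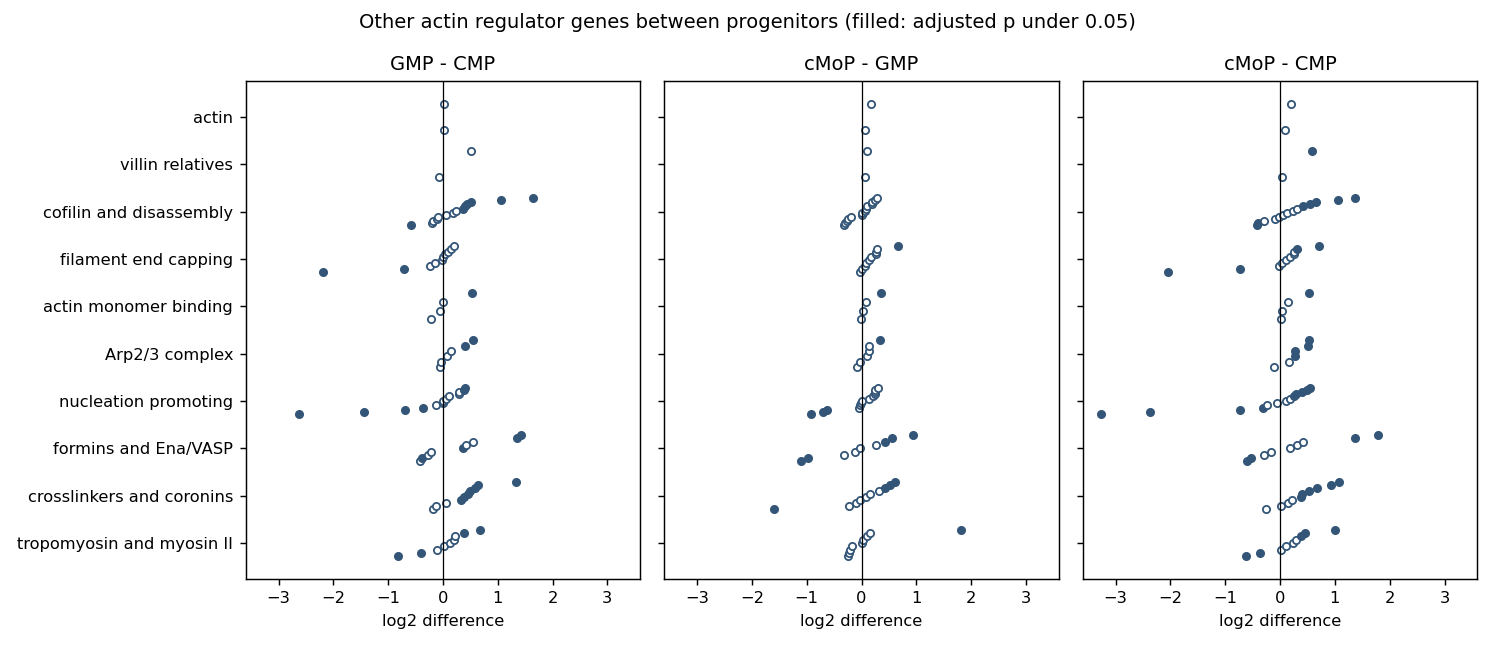
Log2 differences (x axis) of 79 other actin regulator genes between progenitors over both waters, by list (rows); each circle is a gene and filled circles had an adjusted p under 0.05. Filled circles number 33, 16 and 41 from left to right, and those farthest to the left in the outer panels are Nckap1 (-2.63 and -3.26) of the nucleation-promoting list.

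After antibiotics these regulators gave few calls. In CMPs 0 of 79 passed and 6 (7.59%) had an unadjusted p under 0.05 by limma, beside 7.24% of all genes, and in cMoPs it was 0 and 6 (7.59%), beside 6.2%. In GMPs 1 passed, the formin Fmnl2, which was 1.03 ± 0.17 log2 higher (adjusted p = 0.0601); it also passed for the mean of the 3 progenitors (0.52 ± 0.094, adjusted p = 0.0538). Its antibiotic GMP arrays read 5.88, 6.12 and 5.87 and the control arrays 5.02 and 4.83. The call in GMPs was lost with unmoderated variances (adjusted p = 0.247) and when GMP arrays alone were fitted (0.35). It was also lost without antibiotic GMP array 1 (1.07, adjusted p = 0.205), without antibiotic GMP array 2 (0.95, 0.372) and without control GMP array 2 (0.94, 0.266). The interaction was called for 0 of 79, with 5 (6.33%) at an unadjusted p under 0.05 by limma, beside 5.79% of all genes. In CMPs, where Scin read 1.71 higher, the median of the 79 was -0.043 log2, with 35 positive and 43 negative.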

How the data were processed

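The authors deposited log2 values, 1 for each probe set in each array, from Transcriptome Analysis Console and Partek, per the submitters' processing notes; versions, summarisation, normalization and build were not given in the sources used here. RNA (2.6 ng) was amplified and labelled with biotin, per the labels. The log2 values were used as deposited. Of 41345 probe sets, 23521 carried 1 symbol, 1814 several and 16010 none; gene identifiers matched for 23328. The brightest probe set per gene (mean of 16 arrays) left 22180 genes, with no filter.

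Limma 3.58.1 in R 4.3.3 fitted 6 group means (10 residual degrees of freedom; eBayes prior 5.28 degrees of freedom, SD 0.199), two-sided, checked on simulated data. Thresholds were 0.2 for water, as the study design states, and 0.05 for progenitors. Named were all members, the 3 genes most like each, and those called by water. Up to 2 called genes of smallest p per actin list and progenitor comparison were also named. F13a1, Car1, Limk1, Limk2, Ssh1, Ssh2, Ssh3, Wdr1 and Add3 were added after their values were seen. Scin was left out of tests and counts that use CMP arrays, also a later choice. Members and lists were chosen with earlier results of these data known. Replicate numbers were not used to pair arrays, and whether same-numbered arrays share mice is not known. Deviations of the 15 pairs of the same water and number correlated at -0.042 to 0.137, with a median of 0.056 and 2 over 0.1. For the 28 pairs of the same water and another number the median was -0.026, with 0 over 0.1. The main fit treated arrays as independent, and shared mice were not excluded. Alternatives changed the probe sets tested, normalization, variances, arrays and replicate block. The promoter search covered 5 of the members, and Svil was left out of it.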

Additional observations from a re-analysis of the deposited data

How the results depend on the processing

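Across 28 alternative settings no called difference changed sign. Of 1115 alternative values of 42 member differences, 30 changed sign, in 16 differences, each without a call in both settings. Members called between cMoPs and GMPs numbered 3; this became 1 with every probe set tested, with unmoderated variances, with the number as a fixed replicate block and in antibiotic arrays alone, and 0 in control arrays alone. Between cMoPs and CMPs 1 of 5 (Capg) became 0 under the same 5 settings. Between GMPs and CMPs 0 of 5 became 1 (Gsn) over the brighter genes and after quantile normalization. Leaving out each array in turn gave 0 to 3, 0 to 1 and 0 to 1 in the same order. The number of other actin regulators called, 50, fell to 29 in control arrays alone, which hold fewer arrays, and was 43 to 50 with 1 array left out. No antibiotic difference of a tested member was called under any setting. The replicate block as a random term (correlation 0.0105) changed no count of members. Groups of 2 or 3 arrays limit the precision, and Avil lies nearest to the level at which signal is not shown above background.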
